A study of Mus musculus with 61 samples.

Results

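The outermost sagittal fractions of the mouse brain were the 1-mm slices at the 2 ends of the left-to-right axis, and they were taken as the fractions labelled S2 and S10 of the S series and So1, So2 and So10 of the So series. These 5 arrays of 61 in all were compared with the other 14 arrays of the same series, which are called inner fractions here. Each series was 1 brain of an 8-week-old male C57BL/6J mouse, so the 19 sagittal arrays came from 2 mice, none of them treated or carrying an engineered allele. Each brain was perfused, frozen and cut at 5 µm, and successive sections were pooled into 1 fraction, whose total RNA was hybridised to 1 Agilent whole mouse genome array with 1 dye. The S series ran from left to right, with fractions numbered 2 to 10, and the So series was cut slightly oblique to that axis, with fractions numbered 1 to 10. Each series contributed its own mean, so that a difference between outermost and inner fractions was always one within a brain. The 3 arrays S2, So1 and So2 are called the first-cut end and the 2 arrays S10 and So10 the last-cut end. A fraction holds all tissue of its slab, and in such bulk RNA a smaller number of cells of a type and less RNA per cell cannot be told apart.

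The lateral wall of the rodent forebrain is formed by the cortical sheet, which curves down from the dorsal surface through the temporal and insular areas to the piriform cortex. Its excitatory neurons use the vesicular glutamate transporter Slc17a7, and each layer has its own transcription factors. The large fibre tracts, the basal nuclei, the ventricles with their choroid plexus, and the midline nuclei lie medial to it. The cerebellum also spreads to the sides, so that its hemispheres can enter a lateral slab.

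Several features of the arrays bear on the comparison. The share of probes well above background was 57.9% to 62.8% in the outermost fractions and 59.6% to 66.0% in the inner ones. S2 at 59.1%, So1 at 58.8% and So2 at 57.9% lay below every inner fraction. S2, So1 and So2 lay alone on 1 slide, which held no inner fraction, so that for the first-cut end slide and position cannot be told apart. S10 and So10 each shared a slide with inner fractions of their own brain. S2 was scanned on the day of the So arrays and the rest of the S series on another day. So10 stood apart from the other 4 outermost fractions. The level of a gene is given below as log2 intensity minus the 75th percentile of its array, so that 0 is that percentile. On this scale Gabra6, a GABA receptor subunit of cerebellar granule cells, was at -0.85 in S2, -0.45 in S10, -2.03 in So1, -3.42 in So2 and 1.78 in So10, against 1.45, 1.78 and 2.27 as the lowest, median and highest of the 14 inner fractions. So10 therefore lay within the inner range and the other 4 below it. The median of the upper-layer cortical genes relative to the inner fractions of the same brain was -0.07 in So10 and 0.43 to 1.13 in the other 4, so results that rest on So10 are also given without it. Levels of different probes are not comparable, and only differences are set side by side.

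Of the 31505 probes detected on at least 1 sagittal array, 11903 differed between outermost and inner fractions (37.8%, limma adjusted p under 0.05), 6205 of them higher (19.7%) and 5698 lower (18.1%). Counted once per gene, 5947 of 14221 genes differed (41.8%), 3436 higher (24.2%) and 2511 lower (17.7%), with a median difference over all genes of 0.03 on the log2 scale. Scaling each array to its median in place of the 75th percentile moved the median of all probes to 0.13 and the share of calls that were higher from 52.1% to 74.7%, with 41.2% of genes higher and 11.2% lower. Without So10, 24.5% of genes were higher and 19.9% lower. A total of 2199 probes (6.98%) were held at both ends, that is, called in the main comparison and at each end alone with the same sign, 1209 higher (3.84%) and 990 lower (3.14%). They were 1094 genes, with 726 higher (5.11%) and 368 lower (2.59%), of which 38 and 93 changed more than 2-fold. The last-cut end has only 2 arrays, and without S10 the probes held at both ends dropped to 123. With slide as a fixed block, which leaves S10 and So10 against the inner fractions of their own slides, 272 probes were called (0.863%). The p-values measure the spread between fractions of 2 brains.

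The 15 genes held at both ends with the largest positive difference lay between 1.22 and 1.93 on the log2 scale. They include proteins of synapses and neuropeptide signalling (Stx1a, Slc30a3, Nptxr, Vip), of the extracellular space (Ccn3, Bmp3) and of protein turnover (Dtl, Pdzrn3). They were chosen on this difference, so their values describe it and support nothing further. Slc23a3, an orphan member of the family of ascorbate transporters, stood at -0.63 in S2, -0.91 in S10, 0.17 in So1, -0.83 in So2 and -0.68 in So10. Its lowest, median and highest inner levels were -3.27, -2.64 and -1.29. All 5 outermost fractions exceeded every inner one, by 1.93 ± 0.32 (SE, n = 5 and 14 arrays, 3.81-fold, limma adjusted p = 0.000303). Within slides the difference was 1.73 (adjusted p = 0.0905), and 0 of the 15 genes passed the test within slides.

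Dtl, a substrate receptor of a ubiquitin ligase that acts in DNA replication, varied less among the 5 fractions. It was at -0.34 in S2, -0.57 in S10, -0.47 in So1, -0.41 in So2 and -0.64 in So10, and its inner fractions ran from -2.78 over a median of -2.23 to -0.89. The 2 groups did not overlap, and the difference was 1.55 ± 0.28 (limma adjusted p = 0.000511). Vip, the peptide of a class of cortical interneurons, was at 0.90, 0.59, 1.59, 0.82 and 0.26 in S2, S10, So1, So2 and So10, against -0.96, -0.63 and 0.15 for the lowest, median and highest inner fraction. So1 was the highest and So10 the lowest of the 5, still above all inner fractions, with a difference of 1.32 ± 0.21 (limma adjusted p = 0.000239). Slc30a3, which loads zinc into glutamatergic synaptic vesicles, was nearly even, between 1.17 in So2 and 1.5 in So1 over the 5 fractions and at most 0.78 in any inner one, and its difference was 1.27 at each end. Nptxr, a receptor of neuronal pentraxins, ranged from 4.67 to 5.14 in the outermost and from 3.15 to 4.60 in the inner fractions. Msln, best known as a surface protein of mesothelial cells, overlapped, with -1.74 in So2 and -1.43 in the highest inner fraction, and so did Ccn3 and Bmp3. The other 12 had no overlap between outermost and inner arrays of the same series, where 8.28% of all probes had none in either direction. So10 was above its inner mean in each of the 15, by 0.65 for Pdzrn3 to 1.94 for Slc23a3. The 15 were chosen as higher at both ends, and So10 is part of the last-cut end. Its position and the lack of overlap therefore follow largely from the choice and are no support.

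**Figure D1:**
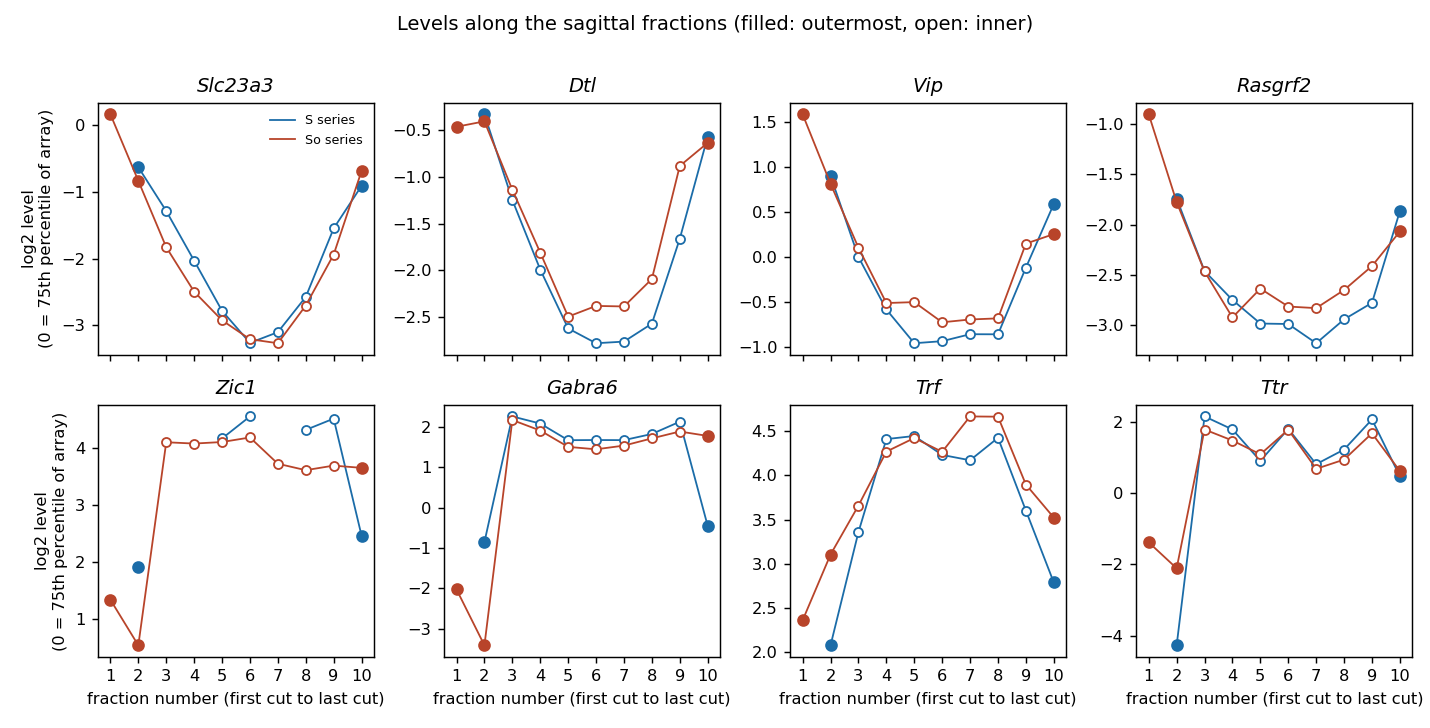
Levels of 8 genes (y axis, log2 intensity minus the 75th percentile of the array) by fraction number from the first to the last cut (x axis), S series in blue and So series in red, with outermost fractions filled and inner ones open, 1 array per point. The upper 4 genes were highest at the ends, the lower 4 were lowest there, and So10 was at the inner level of Gabra6 (1.78); Zic1 has no value on 3 inner S arrays and its line is broken there.

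Genes of cortical excitatory neurons were higher as a group. Of 13 measured, 10 rose and 0 fell, with a median difference of 0.83, beside 24.2% higher, 17.7% lower and a median of 0.03 over all genes. Relative to the inner mean, the list median was 0.98 in S2, 0.92 in S10, 0.83 in So1, 0.90 in So2 and 0.36 in So10. The intermediate fractions S3, S9, So3 and So9 were also up, at 0.71, 0.45, 0.62 and 0.45, so So10 lay below So3 and So9. Within slides 0 of the 13 were called. Slc17a7, the vesicular glutamate transporter of cortical and hippocampal neurons, was at 2.22 in S2, 2.36 in S10, 2.03 in So1, 2.27 in So2 and 2.10 in So10, and at 0.62, 1.07 and 1.94 in the lowest, median and highest inner fraction. No outermost fraction overlapped the inner ones, and the difference was 0.96 ± 0.22 (limma adjusted p = 0.00284). Emx1, a homeobox factor of the dorsal telencephalon, rose by 1.14 ± 0.20 (adjusted p = 0.000523), and Mef2c, a transcription factor of maturing neurons, by 1.24 ± 0.24 (adjusted p = 0.000968). Tbr1, a T-box factor of early-born cortical neurons, rose by 0.88. Neurod6 was 0.47 higher with an adjusted p of 0.19. Camk2a, a calcium-dependent kinase subunit of these neurons, differed by 0.48 ± 0.26 (adjusted p = 0.155), and its other probe by -0.77 (adjusted p = 0.0253). Rprm was the 1 gene of the list held at both ends, with 0.67 at the first-cut and 1.17 at the last-cut end.

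Genes of the layers were counted apart, and their counts were not tested against each other. Of 11 genes of the upper layers, 6 were higher and 0 lower, with a median of 0.53, beside 24.2% higher and 17.7% lower over all genes. Of 13 genes of the deep layers 1 was higher and 5 were lower, with a median of -0.25. Under median scaling these counts were 8 and 0 for the upper layers and 3 and 3 for the deep layers. That scaling called 41.2% of all genes higher and 11.2% lower. Rasgrf2, an exchange factor of layer 2/3 neurons, was at -1.74 in S2, -1.86 in S10, -0.90 in So1, -1.77 in So2 and -2.07 in So10, and no inner fraction exceeded -2.41. It was higher by 1.08 ± 0.14 (limma adjusted p = 7.95e-05) and held at both ends. Cux2, a homeobox factor of the upper layers, rose by 0.87 ± 0.15 (adjusted p = 0.000331), with 0.64 in So1 and -0.59 in So10, below the highest inner level of -0.42. Lamp5 rose by 0.86. Rorb, a nuclear receptor of layer 4, was at -1.37 in S2, -2.07 in S10, -1.92 in So1, -1.71 in So2 and -3.06 in So10, where the inner fractions ran from -2.93 to -2.16. So10 was thus below every inner fraction for Rorb and the other 4 above them all. The upper-layer median was 0.92 at the first-cut and 0.19 at the last-cut end, and without So10 it was 0.77, with 7 genes higher.

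Among the deep-layer genes, Foxp2, a forkhead factor of layer 6, was lower at both ends. It was at -1.08 in S2, -1.05 in S10, -2.29 in So1, -0.43 in So2 and -1.60 in So10, against -0.87, 0.01 and 0.35 as lowest, median and highest inner level. Only So2 reached the inner range, and the difference was -1.22 ± 0.25 (limma adjusted p = 0.00119). Foxp2 is also made by striatal and thalamic neurons. Etv1, a marker of layer 5, was lower by -0.68 and Nxph4, a layer 6b gene, by -1.08. Cplx3, which marks the subplate-derived cells of layer 6b, was the exception and was 0.82 higher on its brightest probe. Its other probe, well above background in 5 outermost and 13 inner fractions, differed by 0.19 and was not called (limma adjusted p = 0.27). The deep-layer median was -0.83 in So1 and between -0.35 and 0.20 in the other 4 arrays. So1, the first fraction of the So series, was thus the lowest.

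The name lateral cortex was checked against 12 genes of the insula, claustrum and endopiriform nucleus. Of these 5 were higher and 2 lower, beside 24.2% and 17.7% of all genes, with a median of 0.21. Relative to the inner mean, the list median was 0.38 in S2 and 0.50 in S10, above the inner fraction S3 at 0.21. In the So brain it was -0.04 in So1, 0.19 in So2 and 0.07 in So10, below the intermediate fraction So9 at 0.30. The higher genes were Gng2, Rgs12, Gnb4, Cdh13 and Ntng2, the last well above background in 2 of the 5 outermost and 4 of the 14 inner fractions. Gng2, a G protein subunit, was at 2.60 in S2, 2.94 in S10, 2.89 in So1, 2.74 in So2 and 2.53 in So10 and at most 2.52 in an inner fraction, a difference of 0.58 ± 0.10 (limma adjusted p = 0.00053), and it alone of the list was held at both ends. Latexin (Lxn), a widely used marker of the lateral cortex, differed by 0.15 ± 0.08 (adjusted p = 0.147). Nr4a2, the orphan nuclear receptor of the claustrum, was at 3.24 in S2, 2.97 in S10, 2.77 in So2, 1.14 in So1 and 1.03 in So10. The inner fractions ran from 0.38 to 2.93, so So1, So2 and So10 lay within their range. Its difference of 0.85 ± 0.39 did not pass (limma adjusted p = 0.095). Tmem163, a zinc transporter, and Slc17a8, a further vesicular glutamate transporter, were lower by -0.79 and -0.80. The list therefore bears the name out only in part, and the fractions are called by their position here.

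Of 14 factors that pattern cortical areas, 6 were higher and 4 lower, beside 24.2% and 17.7% of all genes. Lhx2, a LIM homeobox factor that specifies cortical identity, was at 3.65 in S2, 3.36 in S10, 3.42 in So1, 3.24 in So2 and 3.19 in So10, and at 1.78, 2.11 and 2.94 in the lowest, median and highest inner fraction. The groups did not overlap, and the difference was 1.15 ± 0.20 (limma adjusted p = 0.000446), at 1.22 and 1.05 at the first-cut and last-cut ends. Its relative Lhx9, which is made by thalamic and pretectal neurons, was lower by -2.88. Nr2f1, an orphan receptor graded along the cortex, was 0.61 higher. Of 15 genes of the piriform and entorhinal cortex and the amygdala, 4 were higher, near the share of all genes, and 5 lower. Relative to the inner mean, their median was 0.42 in S2, -0.01 in S10, -0.81 in So1, -0.02 in So2 and 0.07 in So10. The intermediate fractions S9 and So9 were at 0.27 and 0.33. Met, a receptor tyrosine kinase of cortical projection neurons, was at -0.43, -0.82, -0.46, -0.41 and -1.57 in S2, S10, So1, So2 and So10, and inner fractions did not exceed -1.14. So10 alone fell among them, and the difference was 1.13 ± 0.18 (limma adjusted p = 0.000256), or 1.35 without So10. Nts and Fign were lower by -1.38 and -1.20.

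Of 16 interneuron genes 4 were higher and 5 lower, beside 24.2% and 17.7% of all genes. Those that rose code for peptides, namely Vip, cortistatin (Cort, 0.98 ± 0.23), cholecystokinin (Cck, 0.82 ± 0.16) and neuropeptide Y (Npy, 0.66 ± 0.16). Cck is also made by excitatory neurons of the cortex. Among those lower were the vesicular GABA transporter Slc32a1 (-0.68), the GABA-synthesising enzyme Gad1 (-0.47), parvalbumin (Pvalb, -0.87) and calretinin (Calb2, -1.93), which cerebellar cells also make. Somatostatin (Sst) was 0.39 higher with an adjusted p of 0.0538.

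Immediate early genes, which neurons transcribe within minutes of synaptic activity, were higher in 12 of 17 and lower in 0, with a median of 0.50. The shares over all genes were 24.2% higher and 17.7% lower. Junb, an AP-1 subunit, was at 5.26 in S2, 5.31 in S10, 5.06 in So1, 4.88 in So2 and 4.30 in So10, against 3.81, 4.29 and 5.00 as lowest, median and highest inner level. So2 and So10 lay within the inner range and the others above it, with a difference of 0.66 ± 0.14 (limma adjusted p = 0.00126). Egr2, a zinc-finger factor, rose by 0.74 and Nr4a1, an orphan nuclear receptor, by 0.50. Arc, a protein of the postsynapse, was 0.50 higher with an adjusted p of 0.0498 and at 3.67 in So10, below all inner fractions. None of the list was held at both ends: its median was 0.63 at the first-cut and 0.23 at the last-cut end. Genes of plasticity and calcium signalling were also higher in 12 of 19 and lower in 0, with a median of 0.50. Nptx2, a neuronal pentraxin, was at 0.25 to 0.59 in the 5 outermost and -0.82 to 0.03 in the inner fractions, and its difference of 0.79 ± 0.11 (limma adjusted p = 9.93e-05) was also called within slides (0.86, adjusted p = 0.0376). Rgs14, a regulator of G protein signalling, rose by 1.11, and Ctxn1, a cortical membrane protein, by 0.89 with hold at both ends.

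Promoter sequences are shown for genes of this kind because many of them carry the cyclic AMP response element, the palindrome TGACGTCA, or its half-site TGACG, which reads CGTCA on the other strand. RefSeq windows of 300 bases (build GRCm38.p6, 250 before to 50 after the start) were found for 14 of the 18 listed immediate early genes, in 25 windows. The half-site, searched on both strands and counted also inside the palindrome, was in 14 of the 25 windows and 12 of the 14 genes, beside 20.8% of all 32851 windows. The whole palindrome was in 2 of the 25, beside 1.79% of all. Such a match is a description of letters. Capitals mark the element and its half-sites below, first in Btg2, an antiproliferative early gene that was 0.31 higher (chr1:134079106-134079405, minus strand), then in Nr4a1 (chr15:101266596-101266895, plus strand) and last in Vip, of the 15 genes above (chr10:5638968-5639267, plus strand).
Btg2: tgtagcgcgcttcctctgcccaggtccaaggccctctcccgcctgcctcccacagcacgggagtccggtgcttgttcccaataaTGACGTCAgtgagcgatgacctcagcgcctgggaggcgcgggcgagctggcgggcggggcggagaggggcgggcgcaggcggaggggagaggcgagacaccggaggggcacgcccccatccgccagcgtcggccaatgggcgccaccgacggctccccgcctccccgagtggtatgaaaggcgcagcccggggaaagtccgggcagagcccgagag
Nr4a1: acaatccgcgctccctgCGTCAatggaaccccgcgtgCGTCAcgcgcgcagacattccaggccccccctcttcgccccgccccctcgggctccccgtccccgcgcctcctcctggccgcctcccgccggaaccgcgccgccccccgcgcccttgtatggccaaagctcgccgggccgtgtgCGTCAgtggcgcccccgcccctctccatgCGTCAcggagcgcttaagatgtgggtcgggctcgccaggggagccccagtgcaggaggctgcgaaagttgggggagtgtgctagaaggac
Vip: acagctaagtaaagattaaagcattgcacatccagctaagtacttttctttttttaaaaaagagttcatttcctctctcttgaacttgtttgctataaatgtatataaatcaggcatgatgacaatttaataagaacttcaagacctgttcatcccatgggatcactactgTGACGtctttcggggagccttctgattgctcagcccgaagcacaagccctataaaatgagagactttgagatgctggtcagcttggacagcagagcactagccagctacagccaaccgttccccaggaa
The element of Btg2 begins 166 bases before the start. The windows of Nr4a1 and Vip hold half-sites only, 4 and 1 of them.

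The 15 genes with the most negative differences among those held at both ends lay between -2.84 and -1.95. Many are known from the hindbrain, cerebellum and midline, with homeobox factors (En2, Lhx1), zinc-finger and bHLH factors (Zic1, Nhlh2), the corepressor Skor1 and Car8, a carbonic anhydrase-related protein of Purkinje cells. As above, they were ranked on the difference they describe. En2, the homeobox factor of the midbrain and hindbrain, was at -0.79 in S2, -0.55 in S10, -2.09 in So1, -2.66 in So2 and 1.26 in So10, where the lowest, median and highest inner levels were 1.23, 1.62 and 2.07. So10 was at the bottom of the inner range and the other 4 far below it, and the difference was -2.55 ± 0.38 (limma adjusted p = 0.000177), or -3.14 without So10. Lhx1, a LIM homeobox factor, was at -1.98, -2.07, -3.33, -3.97 and -0.81 in S2, S10, So1, So2 and So10 against a lowest inner level of -0.62. Its groups did not overlap, and it differed by -2.39 ± 0.31 (limma adjusted p = 6.93e-05). Prl2c5, of the prolactin family, had the most negative difference (-2.84 ± 0.32, adjusted p = 3.5e-05) and was well above background in 1 of the 5 outermost and all 14 inner fractions. Nhlh2 was well above background in 0 of 5 and 14 of 14, so it was at least 5.2-fold lower. Pappa, a protease that cleaves growth factor binding proteins, was at -5.49 to -3.88 in the outermost and -2.96 to -1.62 in the inner fractions, and its difference of -2.27 ± 0.23 was also called within slides (-1.63, adjusted p = 0.00285). Zic1 had no value on 3 inner arrays, which its fit left out. Of the 15, 10 did not overlap, 2 were called within slides, and in 11 the 2 ends differed, where 2.3% of all genes had ends that differed. Other probes existed for 10 of these 30 genes, and 11 of 11 had the same sign, 10 of them called. The other probe of Pappa was not, with a difference of -0.0007. It was well above background in 0 outermost and 1 inner fraction.

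**Figure D2:**
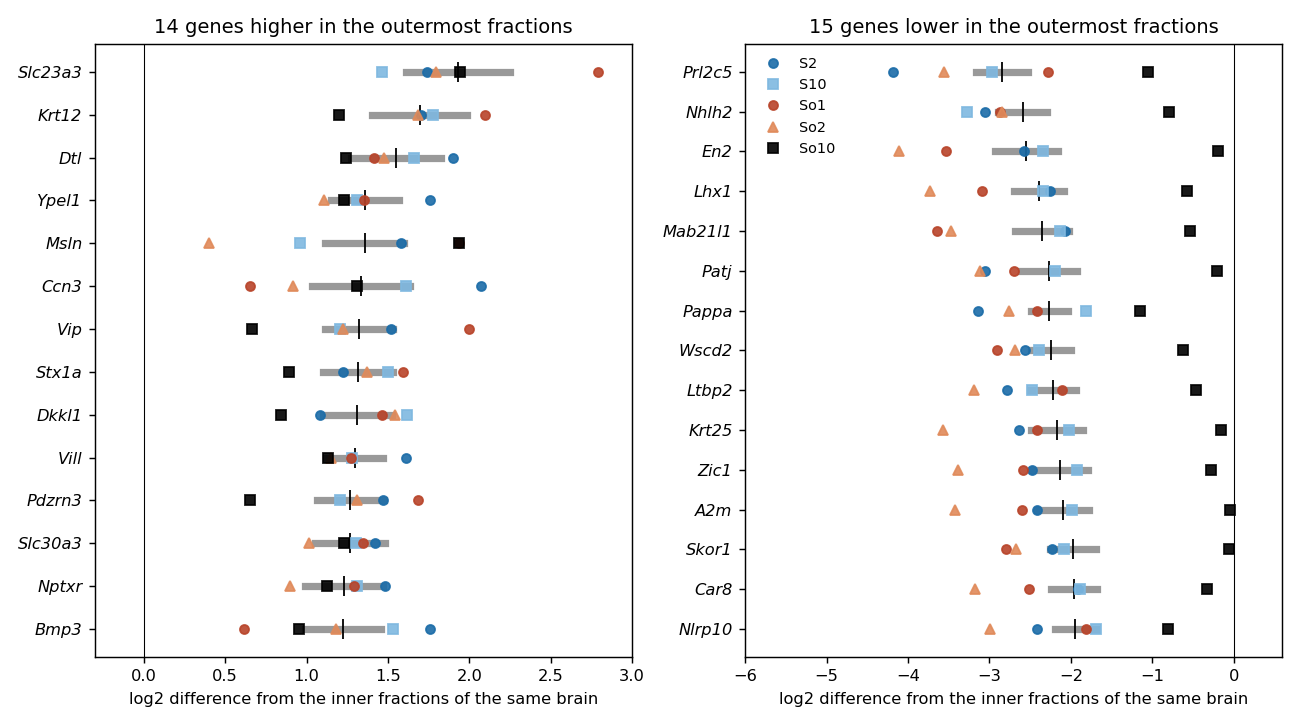
Log2 difference of each outermost fraction from the mean of the inner fractions of its brain (x axis) for 14 of the 15 higher and the 15 lower genes (y axis), with the fitted difference as a black tick and its SE as a grey bar. All points of the higher genes are above 0, which their choice largely fixes. So10 (black squares) lies nearest to 0 in each of the 15 lower genes, at -0.06 for Skor1.

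Most listed genes of the striatum and of the thalamus and habenula were lower. In the striatum, 11 of 18 genes fell and 1 rose, with a median of -0.84, beside 17.7% lower and 24.2% higher over all genes. Drd2, the D2 dopamine receptor, was at -3.56 in S2, -0.30 in S10, -2.05 in So1, -1.79 in So2 and -0.71 in So10, against -0.36, 0.68 and 1.06 as lowest, median and highest inner level. S10 alone reached the inner range, and the difference was -2.14 ± 0.38 (limma adjusted p = 0.00049). Penk, the enkephalin precursor, was lower by -1.03. The gene of the list that rose was Arpp21 (0.76), a phosphoprotein that cortical neurons make too. Thalamic and habenular genes were lower in 8 of 14 and higher in 0 (median -0.73), among them Tcf7l2 (-1.64) and Slc17a6 (-1.09), the glutamate transporter of subcortical neurons. Relative to the inner mean, their median was -0.37 in So10 and -1.07 to -0.71 in the other outermost fractions. The intermediate fractions S3, S9, So3 and So9 were at -0.59, -0.38, -0.58 and -0.43. In the hippocampus, of 9 dentate genes 5 were lower and 2 higher, and Prox1, the homeobox factor of granule cells, was at -4.67 in S2, -4.34 in S10, -4.66 in So1, -4.62 in So2 and -4.15 in So10 against a lowest inner level of -4.02. It did not overlap and was lower by -1.19 ± 0.13 (limma adjusted p = 2.6e-05), also within slides (-0.89, adjusted p = 0.0421). The 12 genes of the CA fields were higher in 3 and lower in 2, near the shares of all genes (24.2% and 17.7%).

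Hypothalamic peptides had a median of -0.98, but 0 of 14 passed as lower, and their inner levels spread widely. Counts in this paragraph stand beside 17.7% lower and 24.2% higher over all genes. Vasopressin (Avp) was at -4.53 in S2, -1.83 in S10, -0.84 in So1, -4.25 in So2 and 0.35 in So10, and at -4.82 to 2.72 in the inner fractions (difference -2.03 ± 1.42, adjusted p = 0.28). Kiss1, the kisspeptin precursor, was the 1 gene of this list that rose. It was at -2.01, -1.82, -0.51, -1.76 and -2.82 in S2, S10, So1, So2 and So10, and its inner fractions ran from -3.69 to -2.30, a difference of 1.23 ± 0.26 (limma adjusted p = 0.00158). So10 was among the inner fractions and the other 4 were above them. All 7 cholinergic genes were lower, with a median of -1.60, including the choline transporter Slc5a7 (-2.35), the esterase Ache (-0.98) and the synthesising enzyme Chat, which was nowhere well above background in the outermost fractions and at least 2.0-fold lower. Of 13 genes of the aminergic nuclei near the midline 3 were lower and 0 higher, beside 17.7% lower and 24.2% higher over all genes. The 3 were tyrosine hydroxylase (Th, -2.0), the decarboxylase Ddc (-1.16) and the zinc-finger factor Gata3 (-3.03). Relative to the inner mean, the list median ran from -2.57 in S2 to -0.07 in So10. The intermediate fractions S3, S9, So3 and So9 were at -1.75, -1.24, -1.72 and -0.85. S10 at -1.18, So1 at -1.08 and So10 lay above S3, S9 and So3, so the low level was shared by intermediate fractions. Of 14 hindbrain Hox genes 2 were lower and 0 higher, beside 17.7% lower over all genes. They were Hoxb3 (-1.32) and Hoxa2, which was at least 4.5-fold lower. The Hox median was -2.62, -1.90, -1.07, -0.59 and 0.05 in S2, S10, So1, So2 and So10. In the intermediate fractions S3, S9, So3 and So9 it was -1.51, -1.59, -2.34 and 0.35. Of 6 genes of glycine transmission 3 were lower and 0 higher, beside 17.7% lower and 24.2% higher over all genes. The transporter Slc6a5 (-2.87) was among those lower. The glycine median was -0.87, -0.48, -1.54, -1.06 and -0.62 in S2, S10, So1, So2 and So10. It was -0.59, -1.03 and -0.60 in the intermediate fractions S3, S9 and So3.

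Cerebellar genes were lower in the first-cut end and in S10. Of 12 granule cell genes 9 fell and 0 rose, with a median of -1.49, beside 17.7% lower and 24.2% higher over all genes. Of 14 Purkinje cell genes 8 fell and 1 rose. Relative to the inner fractions of its brain the granule cell median was -1.52 in S2, -1.51 in S10, -1.81 in So1, -2.42 in So2 and 0.05 in So10. So10 was thus at the inner level, and 6 of the 12 genes differed between the ends, beside 2.3% of all genes. Gabra6 was lower by -2.79 ± 0.49 (limma adjusted p = 0.000473), or -3.51 without So10. Cbln1, a secreted organiser of parallel fibre synapses, was at 3.31, 3.54, 2.23 and 2.23 in S2, S10, So1 and So2 but at 5.39 in So10, in an inner range of 5.07 to 5.64. Rgs8, a G protein regulator of Purkinje cells, was counted in the granule cell list here. It was lower even in So10 (4.06, lowest inner level 4.30) and was called within slides (-0.93, limma adjusted p = 0.0403). Itpka, a kinase of inositol trisphosphate that forebrain neurons share, was the exception and rose by 0.96.

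**Figure D3:**
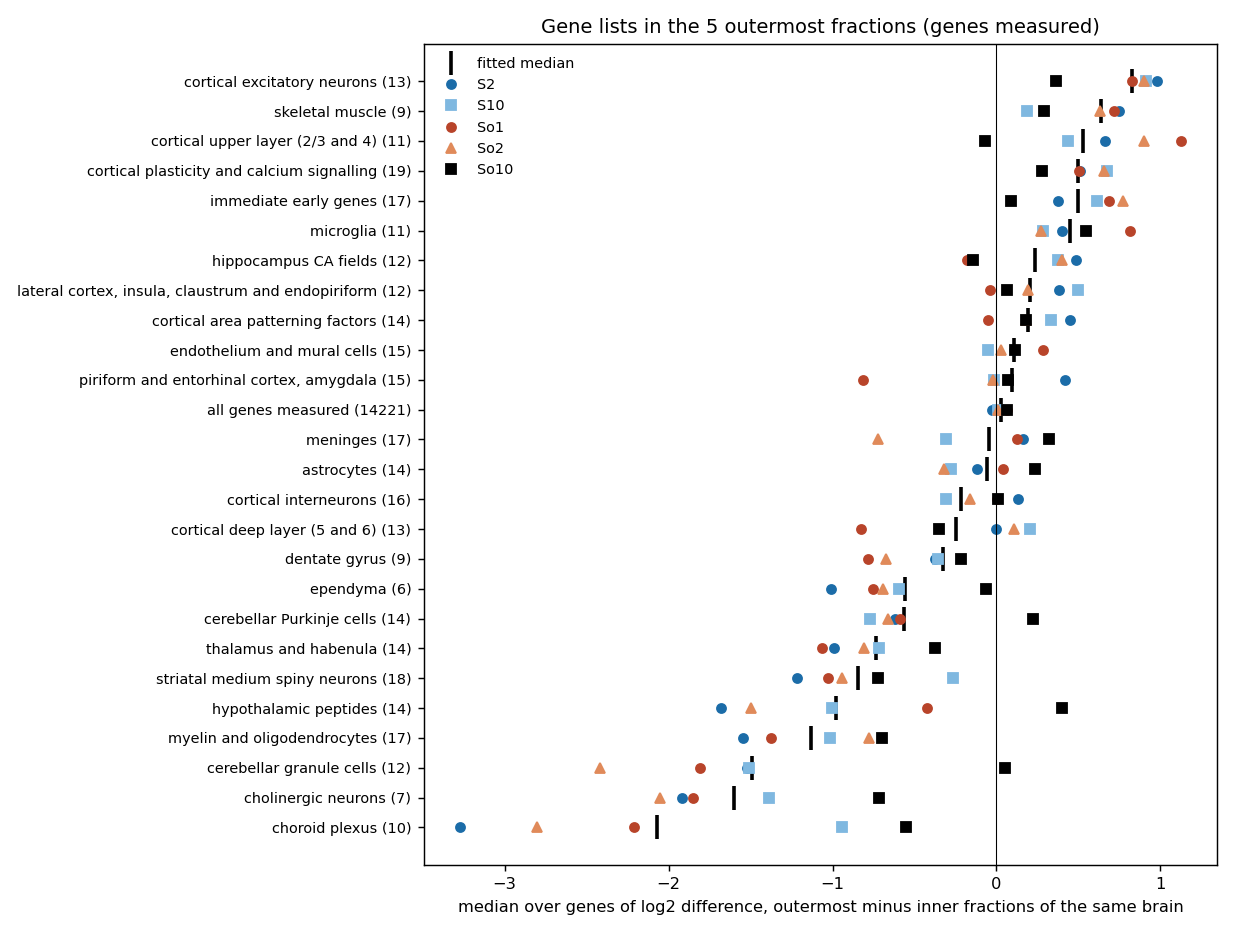
Median log2 difference over the genes of each list (y axis, number of genes measured) between each outermost fraction and the inner fractions of its brain (x axis), with the median of the fitted differences as a black tick. Cortical excitatory neurons, at a fitted median of 0.83, stand at the top and choroid plexus, at -2.07, at the bottom, and So10 (black squares) is near 0 for cerebellar granule cells.

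Glial genes moved in opposite directions. All 17 genes of myelin and oligodendrocytes were lower and 0 higher, with a median of -1.13, beside 17.7% lower and 24.2% higher over all genes. Trf, the iron carrier transferrin, was at 2.08 in S2, 2.79 in S10, 2.36 in So1, 3.11 in So2 and 3.52 in So10, against 3.36, 4.27 and 4.67 as lowest, median and highest inner level. Each outermost fraction was below every inner one of its own brain, and the difference was -1.43 ± 0.22 (limma adjusted p = 0.000201), held at both ends. Fa2h, which makes the hydroxylated lipids of myelin, was lower by -1.48. Mbp, the myelin basic protein, was lower by -0.81 on its brightest probe, and of its other probes 1 was lower by -1.11 (adjusted p = 0.00124) and 1 was 0.51 higher (adjusted p = 0.00454). Of 5 genes of oligodendrocyte precursors 1 was lower, near the share of all genes. It was the AMPA receptor accessory subunit Cacng4 (-0.47), and the list median of -0.11 turned to 0.02 under median scaling.

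Microglial genes, by contrast, were all higher, 11 of 11 beside 24.2% of all genes, with a median of 0.45. Tmem119, a microglial membrane protein, was at 1.77 in S2, 1.64 in S10, 2.03 in So1, 1.42 in So2 and 1.72 in So10, and at 0.93, 1.20 and 1.39 in the lowest, median and highest inner fraction. The groups did not overlap, and the difference was 0.53 ± 0.08 (limma adjusted p = 0.000168). Aif1, known as Iba1, rose by 0.66 ± 0.11 (adjusted p = 0.000384), C1qc, a complement subunit, by 0.44, and P2ry12, the ADP receptor of microglia, by 0.46. So10, which stood apart in cerebellar genes, was at a microglial median of 0.55, below So1 at 0.81 and above the other 3. Without So10, 10 of the 11 were higher, with a median of 0.46, and 0 were called within slides (median 0.34). Astrocyte genes were higher in 1 of 14 and lower in 5, beside 24.2% and 17.7% of all genes. Their median of -0.06 turned to 0.07 under median scaling. The glutamate transporter Slc1a2 was 0.48 higher, while angiotensinogen (Agt) was lower by -1.55 and the bicarbonate transporter Slc4a4 by -0.68.

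Choroid plexus genes were lower in 10 of 10, beside 17.7% of all genes, with a median of -2.07. Transthyretin (Ttr), the main secreted protein of this epithelium, was at -4.28 in S2, 0.48 in S10, -1.38 in So1, -2.11 in So2 and 0.63 in So10, against 0.69, 1.59 and 2.17 as lowest, median and highest inner level. The first-cut end was far below the inner range and the last-cut end just under it, and the difference was -2.80 ± 0.55 (limma adjusted p = 0.000993). The list median was -2.94 at the first-cut and -0.79 at the last-cut end. In 9 of the 10 genes the ends differed, beside 2.3% of all genes. Foxj1, the ciliogenesis factor of the ependyma, was lower by -1.30.

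Markers of tissue that could cling to the outside of a brain were read with these lists. Of 17 meningeal genes 0 were higher and 2 lower, beside 24.2% and 17.7% of all genes. Their summed level, on the linear scale with the 75th percentile at 1, was 94.4 to 192 in the outermost and 98.4 to 217 in the inner fractions. Their median of -0.05 turned to 0.08 under median scaling. Of 15 endothelial and mural genes 2 were higher, or 10 under median scaling, which called 41.2% of all genes higher, with sums of 54.3 to 72.7 and 52.0 to 67.6. Among blood genes, the haemoglobin chains Hbb-bt and Hba-a1 differed by -0.31 ± 0.27 and -0.35 ± 0.24 (limma adjusted p = 0.394 and 0.279), and S100a9, a protein of neutrophils, by 0.46 ± 0.48 (adjusted p = 0.487). Hbb-bt was at 3.43 in S2, 2.95 in S10, 3.63 in So1, 1.89 in So2 and 4.42 in So10, which spanned its inner range of 3.1 to 4.16. Skeletal muscle genes were higher in 5 of 9 and lower in 1, with a median of 0.64 and sums of 1.84 to 3.04 in the outermost and 1.12 to 1.88 in the inner fractions. Myh2, a myosin heavy chain of fast muscle fibres, was at -0.56 in S2, -0.74 in S10, -0.32 in So1, -0.15 in So2 and -1.38 in So10, above the highest inner level of -1.0 in all but So10. It rose by 1.08 ± 0.20 (limma adjusted p = 0.000684), and Acta1 and Myh4 by 0.78 and 0.79. No muscle gene in the list was without signal above background in all outermost fractions, and the part of such tissue in the differences above was not tested.

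The outermost fractions were next set against the intermediate fractions beside them (8 arrays) and against the midline fractions (6 arrays). Against the intermediate fractions 8825 probes were called (28.0%), and against the midline fractions 13455 (42.7%). All 15 of the higher genes were called in both, which follows largely from their choice, and in each the difference was larger against the midline. Slc23a3 differed by 1.48 from the intermediate and 2.53 from the midline fractions, and Dtl by 1.16 and 2.06. Lhx2 likewise stood 0.86 above the intermediate and 1.53 above the midline fractions. The levels of these genes thus stepped up outwards from the midline. Among the 15 lower genes, which were also called in both, 10 were lower against the midline than against the intermediate fractions and 5 were not. En2 differed by -2.60 and -2.48 and Gabra6 by -2.97 and -2.56, so that in both the drop was larger against the intermediate fractions, while Trf differed by -1.29 and -1.62.

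**Figure D4:**
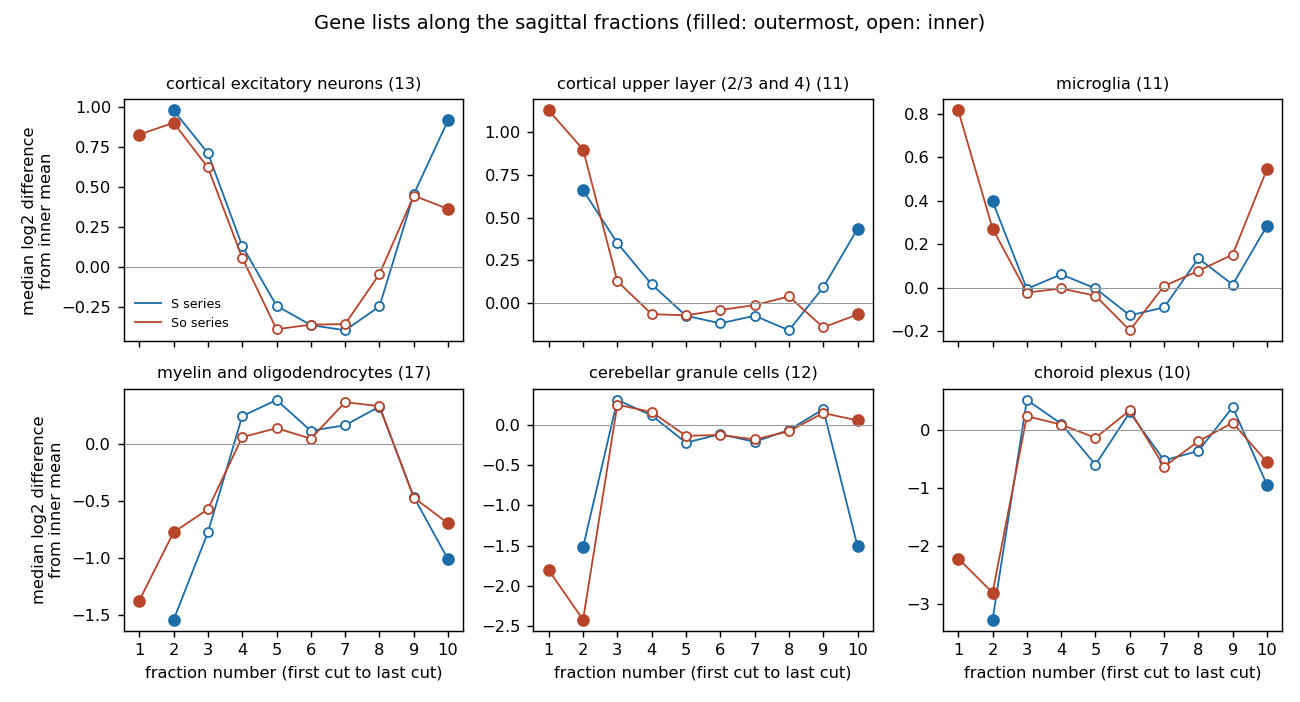
Median over the genes of 6 lists of the log2 difference from the mean of the inner fractions of the same brain (y axis) by fraction number (x axis), S series in blue and So series in red, outermost fractions filled, 1 array per point. Cortical excitatory genes dip towards the midline, cerebellar granule cell genes run from -0.22 to 0.31 across the inner fractions with So10 at 0.05 among them, and microglial genes are highest in So1 at 0.81.

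The 2 ends were then compared with each other. The first-cut end alone differed from the inner fractions in 11592 probes (36.8%) and the last-cut end alone in 3083 (9.79%), and the 2 ends differed from each other in 836 (2.65%). The count at the last-cut end rests on few arrays: it was 337 without S10, 1796 without So10, between 1911 and 1982 without So4, So5 or So7, and 5039 without So1. Without So10 the ends differed in 171 probes and without S10 in 1815. Among choroid plexus and cerebellar genes, Ttr was 3.18, Cbln3 2.86 and Gabra6 2.74 higher at the last-cut end. Upper-layer factors went the other way, with Pou3f2 -1.22, Nectin3 -1.02 and Rorb -0.94. Ptprb, an endothelial phosphatase, was also higher at the first-cut end (-1.11). Olfr922, an olfactory receptor probe, was well above background in 2 outermost and 0 inner fractions. It was at -4.72 in S10 and -4.80 in So10, with all other arrays at -7.10 or less. The bound of at least 2.2-fold higher is for the mean of all outermost fractions, which takes in S2, So1 and So2 at that low level. The effect of position differed between the 2 brains in 16 probes (0.0508%), with 4510 at an unadjusted p under 0.05. The genes among them were Sgo2a and Ugt2b38, both dim. Ugt2b38 was well above background in 2 outermost and 0 inner fractions, at -3.72 in S2 and -4.25 in S10.

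In the other planes, which came from 4 further mice, the coronal series C and Co ran from posterior to anterior and the horizontal series H and Ho from dorsal to ventral. Of the 15 higher genes, 14 were highest in H1 and 13 in Ho1, the most dorsal fractions. Along the coronal axis 10 were highest in C11 and 12 in Co12 or Co13, and in these series the posterior fractions were low. Dtl spanned 7.67 on the log2 scale in the C series and 0.78 in the H series. Msln was the exception, highest in the first fraction of every series (C1, Co1, H1 and Ho1). Bmp3 peaked in H5 and Ho2 with ranges of 0.39 and 0.33. Of the 15 lower genes, 13 were highest in C2 to C4 and 13 in Co3 to Co5, where Gabra6 was also highest (C3 and Co5), and 14 were lowest in Ho1. The other 2, Ltbp2 and Nlrp10, were highest at the anterior end (C13). These arrays are single fractions without replicates and their profiles are a description.

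**Figure D5:**
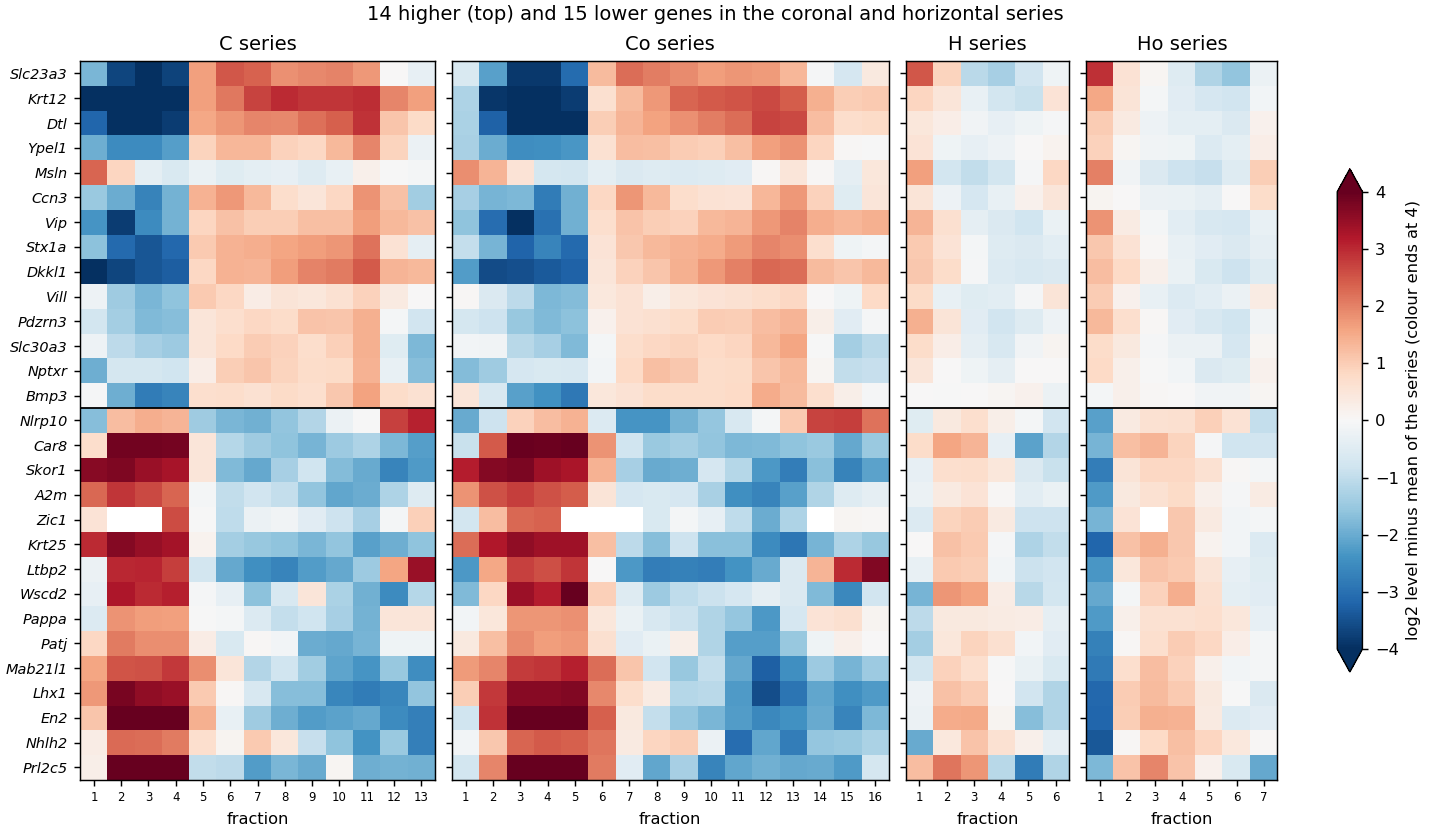
Log2 level minus the mean of the series (colour) for 14 of the 15 higher genes (above the line) and the 15 lower genes (below it) in each fraction (x axis) of the coronal series C and Co and the horizontal series H and Ho, white where an array gave no value. The higher genes other than Msln are low in the posterior fractions C2 to C4, where 13 of the lower genes are highest. Msln is 0.87 above its series mean in C2. All but 1 of the higher genes drawn are highest in H1.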

How the data were processed

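Each of 61 brain fractions was measured on 1 Agilent array. The authors deposited the processed intensity of each spot, background-subtracted in Feature Extraction 9.1.3.1 and not normalized between arrays, and a table on the linear scale normalized per chip in GeneSpring GX (36558 probes), deposited by the authors, which served as an alternative. From the deposited intensity, log2 values minus the 75th percentile of each array were averaged over the spots of 41174 probes, without control spots and outlier flags. The 31505 probes detected on at least 1 of 19 sagittal arrays were fitted with limma 3.58.1 in R 4.3.3 (lmFit, eBayes, series as fixed block, Benjamini-Hochberg). Symbols came from RefSeq, and a gene was read on its brightest probe. Groups came from the labels, and members and lists were chosen with earlier results of these data known. Genes are named if they were among the 15 highest or lowest held at both ends and above background throughout the brighter group, in the lists, or among the 5 with the smallest p for the ends or for the series. A few genes that meet this rule are not reported here and are not drawn. In simulated data on 31505 probes for this comparison, 63 of 100 changes of 0.5 and 77 of 100 of 1 (log2) were recovered, with 8 false calls. Array number limits the precision. Fold bounds use, per array, the higher of the lowest signal well above background and the probe's own signal. Alternatives were other scalings, background corrections, filters, blocks, references and each array left out.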

Additional observations from a re-analysis of the deposited data

Results flagged for a closer look

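In 6 of 143 genes tested, 1 of the 5 outermost arrays lay apart from the other 4 by Dixon's criterion, which chance alone meets in about 1 of 20 groups. On the scale of log2 difference from the inner fractions of the same brain, So10 was the array in 4 of them, with -0.79 for Nhlh2, -0.62 for Wscd2, -0.062 for Skor1 and 0.197 for Myh2. The others were Lypd1 in So2 (-0.023) and Slc17a6 in S2 (-1.69).

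The last-cut end differed from the first-cut end in 29 of 144 named genes (limma, adjusted p under 0.05). Among cerebellar genes, the last-cut minus first-cut difference was 2.74 in Gabra6, 1.87 in Cbln1, 2.86 in Cbln3, 2.02 in Pcp2, 1.74 in Zic1 and 1.44 in Car8. Choroid plexus genes gave 3.18 in Ttr, 2.59 in Otx2, 2.66 in Clic6 and 0.86 in Prlr. Among the other genes with the most negative differences it was 2.15 in En2, 1.57 in Lhx1, 1.72 in Mab21l1, 1.80 in Patj, 1.31 in Pappa, 1.24 in Wscd2, 1.81 in Krt25, 1.82 in A2m and 1.51 in Skor1. Striatal and other genes gave 2.00 in Drd2, 1.20 in Penk, 1.59 in C1ql2, 0.66 in Tmem163, 0.94 in Nek3 and 2.85 in Olfr922. The first-cut end was the higher one in Rorb (-0.94), Nectin3 (-1.02), Pou3f2 (-1.22) and Ptprb (-1.11). The ends also differ in slide, and the part of slide in these differences was not tested.

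The position effect differed between the brains in Sgo2a, by 4.53 (So minus S), and in Ugt2b38, by -3.86 (limma adjusted p = 0.0307 for both), each from a probe that was well above background in part of the arrays.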

How the results depend on the processing

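The direction of the 129 named genes that were called was kept under every setting that could be fitted, with 3 exceptions: Mbp was 0.51 on another probe, Nek3 gave 0.10 with slide as a fixed block and Ugt2b38 -0.10 in the So series alone. With slide as a fixed block 6 of the 129 were still called and 122 were not, and 272 probes were called, 186 of them also held at both ends. The S series alone called 5670 probes, the So series alone 6153, and the intermediate fractions as the reference 5982. Of genes not called over both brains, Sgo2a was -2.32 in the S series alone and Camk2a -0.77 on its other probe.

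Probes held at both ends numbered 3467 under median scaling, 3664 in the authors' table, 642 without the series block, 839 in the S and 20 in the So series alone, 20 with intermediate fractions and 4897 with midline fractions as the reference and 120 at an adjusted p under 0.01. Asking for the first-cut end alone in place of both ends gave 11592. The first-cut end differed from the inner fractions in 4590 probes in the S series alone and 6904 against intermediate fractions. The last-cut end did so in 889 without the series block, 597 with fraction number as a random replicate block, 1453 in the S and 196 in the So series alone, and 41 and 5993 against intermediate and midline fractions. The ends differed in 435 probes without the series block, 453 in the S series alone and 16 with intermediate fractions as the reference. Outermost against intermediate fractions gave 14805 probes with no filter, 3241 in the S and 8 in the So series alone, and outermost against midline fractions 8481 and 7403. The difference between the brains was called in 4 probes after normexp, 28 with no filter, 0 (limma) among probes above background on all arrays, and 6 and 3 against intermediate and midline fractions. Leaving out So1 and So2 together, an alternative chosen after seeing the data, gave 7904 probes against the inner and 5601 against the intermediate fractions, 5962 at the first-cut and 5442 at the last-cut end, 2181 for the ends and 2659 for the brains. The cause was not tested.

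Leaving out 1 array at a time gave 9847 to 12776 probes against the inner, 6948 to 10498 against the intermediate and 12243 to 14223 against the midline fractions, 123 to 3257 held at both ends, 9116 to 12152 at the first-cut and 337 to 5039 at the last-cut end, 171 to 1815 for the ends and 1 to 3133 for the brains. Held at both ends dropped to 123 without S10, 1416 without So4, 1410 without So5, 1364 without So7 and 1370 without So10. The ends differed in 423 without S2, 1815 without S10 and 171 without So10. The difference between the brains was called in 133 without S2, 27 without S3, 2 without S9, 1299 without S10, 8 without So1, 3133 without So2, 2 without So3, 1 without So8, 1 without So9 and 31 without So10.

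Whether equal fraction numbers pair the brains was not settled. Residuals were taken from the mean of each position group in its series, which removes the level that a position shares. S2 and S10 alone form a group, so their residuals mirror each other. Residuals of equal numbers correlated with a median r of 0.07, over 0.1 in 3 of 9 pairs. Of the S fractions, 3 correlated best with their own number. The consensus correlation within fraction numbers, without that step by position group, was 0.22. With fraction number as a random replicate block, 10624 probes were called, 464 were held at both ends, the ends differed in 272 and the brains in 169. Dim probes limit the depth: 22730 of the 31505 were detected on all 19 arrays.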
